A study of Mus musculus with 18 samples.

Results

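Replication-dependent histone genes were examined in E15.5 mouse cerebral cortex by RNA-seq and Ribo-seq. Members were all genes whose symbol begins with Hist1h, Hist2h, Hist3h or Hist4h in the GRCm38 naming, which gave 70 of 55153 genes, made up of 6 H1, 20 H2A, 19 H2B, 12 H3 and 13 H4 genes. Libraries came from wild-type control cortex (Ctrl), from Fto(f/f, Emx1-cre) cortex (F-cKO), in which the gene of the m6A demethylase Fto is floxed, and from Mettl3(f/f, Emx1-cre) cortex (M-cKO), in which the gene of the catalytic subunit of the m6A methyltransferase is floxed. All were taken at embryonic day 15.5 and are labelled as strain C57BL/6, while by the methods the floxed lines had a mixed C57/BL6 and 129 background. Cre was driven by the Emx1 promoter, so cells of the cortex outside the Emx1 lineage, such as interneurons, vessels and meninges, kept the targeted gene. Each genotype had 3 libraries per assay, 18 in all. For Ribo-seq the methods speak of 3 cortical samples from “1 L”, which may mean 1 litter, without saying whether these were pooled, so p-values measure the spread between these libraries only. The question was how loss of the m6A eraser or writer changed the RNA and the ribosome footprints of these genes.

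Histone genes of this kind are transcribed together in S phase, when new chromatin is built. Their mRNAs typically have no introns and end in a conserved stem-loop instead of a poly(A) tail. The stem-loop binding protein Slbp stays with the mRNA through processing, export and translation, and the mRNAs are degraded when DNA synthesis stops. Not every member need follow this. RefSeq spans of Hist1h2bc, Hist1h2be and Hist1h2bp were 8282, 37455 and 14079 bases. The lengths implied by their counts and FPKM were 1168, 4494 and 714. Core histones H2A, H2B, H3 and H4 form the nucleosome, and linker histone H1 binds the DNA that enters and leaves it. In the embryonic cortex S phase takes place in radial glia and intermediate progenitors.

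The genes lie in clusters. In RefSeq coordinates of GRCm38.p6, 55 Hist1 genes lay on chromosome 13 between 21715711 and 23934913, 10 Hist2 genes on chromosome 3 between 96219885 and 96270192, 3 Hist3 genes (1 of them the pseudogene Hist3h2bb-ps) on chromosome 11 between 58948911 and 58955192, and Hist4h4 on chromosome 6 between 136803993 and 136804431. Hist1h2al was the remaining member, on chromosome 13 outside that span. Many copies are nearly the same in sequence. RefSeq entries list each other's names as synonyms for 32 members, in groups of 13 (all H4 genes), 8 and 4 (H3), and 4 and 3 (H2B), so reads shared between copies may have been assigned to either, or dropped, by the counting, and values of single copies in these groups are uncertain. Shared names do not find every copy, and sequences of the other members, H2A genes among them, were not compared here, so their values may be uncertain in the same way.

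The promoters of 5 linker histone genes and of both Hist3 genes with most RNA-seq reads are shown, because these genes carry many of the results below. The sixth linker histone gene, the testis gene Hist1h1t, had few reads in either assay and is left out. Each is the 150 bases before the RefSeq start, 5′ to 3′ on the strand of the gene, in GRCm38.p6. Capitals mark CCAAT on either strand, TATAAA on the gene's strand, the octamer ATTTGCAT on either strand and the AC box AAACACA on either strand.
Hist1h1a, chr13:23763518-23763667, plus strand: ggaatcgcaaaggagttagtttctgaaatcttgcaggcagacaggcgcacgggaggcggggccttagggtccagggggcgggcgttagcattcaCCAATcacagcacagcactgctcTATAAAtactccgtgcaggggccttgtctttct
Hist1h1b, chr13:21780626-21780775, minus strand: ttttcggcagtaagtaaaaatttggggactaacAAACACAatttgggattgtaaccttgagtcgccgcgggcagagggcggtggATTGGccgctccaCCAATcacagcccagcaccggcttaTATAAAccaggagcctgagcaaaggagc
Hist1h1c, chr13:23738657-23738806, plus strand: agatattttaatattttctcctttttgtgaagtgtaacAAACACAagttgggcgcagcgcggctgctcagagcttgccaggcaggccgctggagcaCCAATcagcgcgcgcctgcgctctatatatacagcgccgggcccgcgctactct
Hist1h1d, chr13:23554882-23555031, plus strand: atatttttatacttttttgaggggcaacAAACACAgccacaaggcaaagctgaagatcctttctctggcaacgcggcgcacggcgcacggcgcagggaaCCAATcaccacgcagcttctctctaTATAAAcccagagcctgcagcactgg
Hist1h1e, chr13:23622559-23622708, minus strand: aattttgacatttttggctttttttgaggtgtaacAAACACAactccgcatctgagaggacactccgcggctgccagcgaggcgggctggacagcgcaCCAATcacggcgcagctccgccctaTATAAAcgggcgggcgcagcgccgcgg
Hist3h2ba, chr11:58948761-58948910, plus strand: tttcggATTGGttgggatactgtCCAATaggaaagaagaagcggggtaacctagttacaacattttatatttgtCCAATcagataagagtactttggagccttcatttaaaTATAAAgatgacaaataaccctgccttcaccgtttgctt
Hist3h2a, chr11:58954535-58954684, plus strand: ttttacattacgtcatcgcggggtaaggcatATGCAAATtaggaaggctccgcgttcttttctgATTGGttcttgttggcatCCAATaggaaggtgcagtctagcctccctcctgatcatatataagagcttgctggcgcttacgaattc
CCAAT was present in this window for 51 of 62 members with a promoter in the RefSeq table (82.3%), against 24.5% of all 32851 promoter windows. It was found in all 6 H1, all 18 H2A and all 16 H2B windows, in 8 of 10 H3 windows and in 3 of 12 H4 windows. TATAAA was present in 35.5% of member windows against 4.84% of all windows, the octamer in 16.1% against 0.998%, and AAACACA in 12.9% against 3.53%, with 5 of the 6 H1 windows holding the latter. The octamer was found in 5 H2A and 5 H2B windows and in no H1, H3 or H4 window. These matches describe letters only, and the letters were chosen with the sequences in view.

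Library totals and labels were examined first. RNA-seq libraries held 18504094 to 22592406 counted reads and Ribo-seq libraries 10973699 to 35853227, the smallest being F-cKO 2. Fto RNA fell in F-cKO (log2 fold change −1.21 ± 0.33 SE, edgeR adjusted P = 0.0298). F-cKO 2 was at 98.8 CPM (counts scaled to library size). The other F-cKO libraries were at 41.7 and 32.2 and Ctrl at 110.3 to 149.1. Fto footprints were at 39.2, 25.2 and 43.9 CPM in F-cKO against 181.8 to 279.6 in Ctrl. This fall (−2.675 ± 0.25) was not called (edgeR adjusted P = 0.35). Mettl3 RNA went against the label, at 40.6 to 43.9 CPM in M-cKO against 26.1 to 33.5 in Ctrl (0.50 ± 0.09, edgeR adjusted P = 0.00221), while its footprints were lower (−0.55 ± 0.09, edgeR adjusted P = 0.0157). Counts per gene do not resolve the deleted exons, and M-cKO stands below for the libraries so labelled. The Ribo-seq library labelled F-cKO 2 stood apart, with endothelium markers summing to 221.6 CPM against 10.3 to 21.9 in the other 8 libraries. Interneuron and ganglionic eminence markers summed to 556.5 to 747.4 CPM in M-cKO RNA-seq against 420.7 to 428.4 in Ctrl and 390.8 to 514.3 in F-cKO, and all 6 were called higher in M-cKO than in Ctrl, against 15.5% of all genes. In F-cKO RNA-seq meninges markers summed to 20 to 70.7 CPM against 82.5 to 170.8 in Ctrl (2 of 5 called lower) and endothelium markers to 104 to 114.2 against 125.6 to 136.4 (1 of 5 called lower), against 9.57% of all genes called lower. The part of these cell types in the histone values was not tested. In such bulk samples fewer cells of a type and less RNA per cell cannot be told apart.

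Most replication-dependent histone genes had few RNA-seq reads and many footprints. They took 0.0197% to 0.0276% of RNA-seq reads per library and 0.331% to 0.658% of Ribo-seq reads. Per length, the median member had 0.248 FPKM in RNA-seq and 46.6 RPKM in Ribo-seq (fragments or reads scaled by gene length and library size), as means over 9 libraries. An RNA-seq FPKM of at least 1 was reached by 13 members, at least 10 by 3 and at least 100 by Hist3h2ba alone, while a Ribo-seq RPKM of at least 1 was reached by 58, at least 10 by 50 and at least 100 by 20. No RNA-seq read was counted in any library for 7 members.

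**Figure D1:**
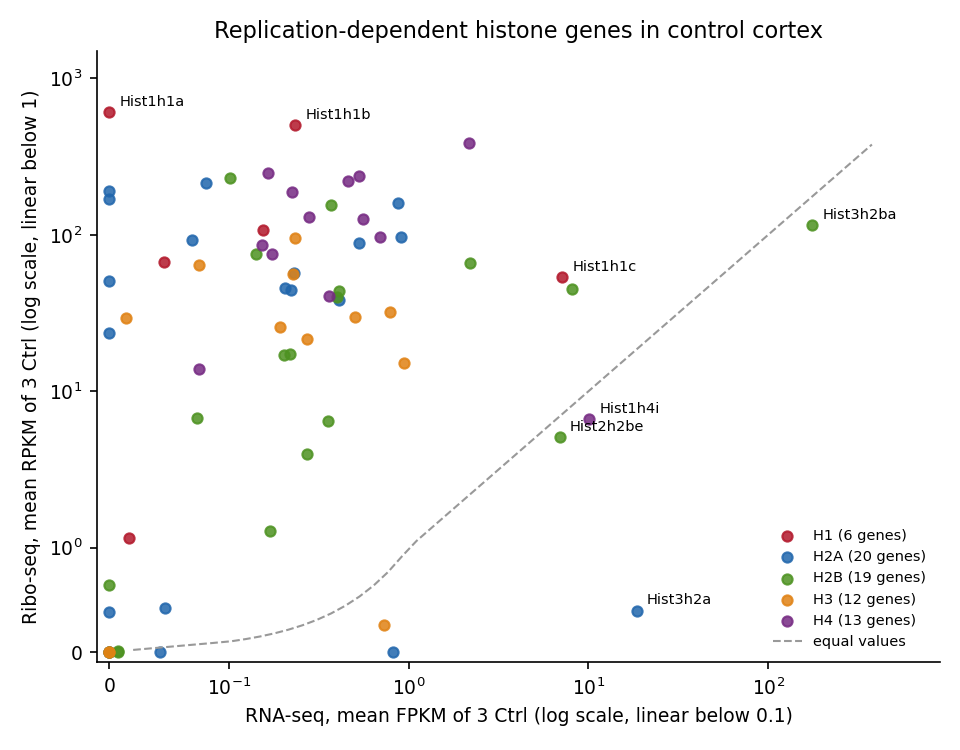
Mean RNA-seq FPKM (horizontal) and mean Ribo-seq RPKM (vertical) of each of the 70 members over 3 Ctrl libraries, on log scales that are linear near 0, coloured by histone class. Most members lie far above the dashed line of equal values, and Hist3h2ba, Hist3h2a, Hist2h2be and Hist1h4i lie below it.

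The RNA-seq reads came from a few genes. Hist3h2ba, an H2B gene of the small Hist3 cluster, held 57.0% of all member reads, the H2A gene Hist3h2a held 15.1%, Hist2h2be (H2B) 8.44%, Hist1h4i (H4) 4.49%, Hist1h1c (linker histone H1.2) 4.34% and Hist1h2bc (H2B) 3.41%, together 92.7%. Hist3h2ba had 164.0, 197.6 and 166.7 FPKM in Ctrl, 193.4, 200.7 and 196.6 in F-cKO, while M-cKO had 274.0, 268.1 and 286.6. All M-cKO libraries lay above the rest. In Ribo-seq the reads were spread over many genes, with Hist1h1d (H1.3) at 14.02% of member reads, Hist1h1a (H1.1) 10.1%, Hist1h1b (H1.5) 9.26%, Hist1h4d 6.13% and Hist4h4 5.28%.

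The order of genes differed between the assays. Hist1h1a had the highest footprint level of all members, at 606 ± 72.0 RPKM (SD, n = 3) in Ctrl, and no RNA-seq read in any Ctrl library. Hist1h1b followed at 500 ± 56.9 RPKM with 2, 8 and 1 RNA-seq reads in Ctrl, then Hist1h4k at 384 ± 32.5 RPKM and Hist1h4f at 248 ± 13.1 RPKM. In the other direction, Hist3h2a had 18.5 FPKM in Ctrl RNA-seq and a Ribo-seq RPKM of 0.392, 0.463 and 0.335. Among H2A genes Hist1h2ad (216 ± 10.4 RPKM) and Hist1h2af (169 ± 22.9 RPKM) stood among the highest in footprints, the latter with no RNA-seq read in Ctrl, among H2B genes Hist1h2bb (230 ± 14.8 RPKM) and Hist1h2bj (155 ± 42.7 RPKM), and among H3 genes Hist1h3i (95.6 ± 16.0 RPKM) and Hist1h3b (64.4 ± 4.71 RPKM). In RNA-seq the H3 genes with the highest level were Hist1h3c and Hist1h3h, the latter with 0.977, 0.803 and 1.04 FPKM in Ctrl. The levels of Hist1h1a and Hist1h1b differed by less than the sum of their SDs, as did those of Hist1h2ad and Hist1h2bb.

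The ratio of footprint RPKM to RNA FPKM, a measure of translational efficiency (TE) in the study, was computed from group means. Its median over members was 139.2 in Ctrl (55 members with values above 0), 101.3 in F-cKO (57) and 178.3 in M-cKO (57), against 0.789, 0.850 and 0.944 over all genes. In Ctrl 40 of the 55 members lay above the 99th percentile of all genes, a ratio of 56.3. The 11 replication-independent histone genes, which are transcribed outside S phase too and have polyadenylated mRNAs, had a median of 0.401 in Ctrl, with a range of 0.106 to 1.03. Of the members, 6 had a Ctrl ratio below 1, among them Hist3h2a (0.0214), Hist3h2ba (0.652), Hist1h4i (0.656) and Hist2h2be (0.733). The ratio is a description with no test, and the order of genotypes is not firm. With a pseudocount of 0.1 the members' medians were 95.7, 97.2 and 130.6 for Ctrl, F-cKO and M-cKO, and without replicate 3 that of M-cKO was 310.8. Whether RNA-seq selected poly(A) RNA is not stated, its labels give total RNA as the fraction, and the part of such a selection in the ratio was not tested. The members' median fell to 5.63 in Ctrl, over 7 members, when an FPKM and RPKM of at least 1 were required.

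Gene models also entered the values per length. The length implied by counts and FPKM was over 2 times the RefSeq length for 11 of 63 members, among them Hist1h1d (9.67 times), Hist4h4 (6.59 times), Hist1h2ac (5.15 times) and Hist3h2a (4.27 times), so FPKM of these genes were divided by longer models than the RefSeq gene. Hist1h1d stood at 67.1 ± 5.81 RPKM in Ctrl although it had the most footprint reads of all members. Hist3h2a overlaps Trim17 and Hist3h2ba overlaps Gm51864 in RefSeq, and the counting is not stated to have used strand, so reads of the partners could not be separated. For 2 H2A genes the assays differed: Hist1h2ao had 4 to 41 RNA-seq reads per library and an RPKM of 0 in every library, while Hist1h2ap had at most 1 RNA-seq read in any library and a mean of 1440 Ribo-seq reads.

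Each knockout was next compared with Ctrl in RNA-seq, for the 17 members that passed the filter on low counts in that comparison. The other 53 had too few reads to be tested. The sets differed, as Hist1h1d was tested in F-cKO only and Hist1h1e in M-cKO only. In F-cKO, 5 members were called higher and 0 lower (edgeR, adjusted P below 0.05), against 11.5% of all 16944 genes called higher and 9.57% called lower. The members' median log2 fold change was 0.45 against −0.01 over all genes tested. The called genes were Hist1h3c (H3), Hist1h4i and Hist1h4j (H4), Hist2h2be (H2B) and Hist1h2ao (H2A).

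Hist1h3c had 12, 10 and 9 reads in Ctrl and 25, 34 and 36 in F-cKO, a log2 fold change of 1.59 ± 0.30 SE (edgeR adjusted P = 0.00804). All F-cKO values lay above all Ctrl values. Hist1h4i rose from 160, 165 and 134 reads to 201, 228 and 276 (0.60 ± 0.14, edgeR adjusted P = 0.0169), and Hist2h2be from 440, 405 and 292 reads to 476, 496 and 592 (0.45 ± 0.11, edgeR adjusted P = 0.0216). Hist1h4j had 9, 11 and 7 reads in Ctrl and 23, 18 and 24 in F-cKO (1.24 ± 0.33, edgeR adjusted P = 0.0266). Hist1h2ao had 11, 10 and 4 reads in Ctrl and 15, 26 and 41 in F-cKO (1.69 ± 0.45, edgeR adjusted P = 0.0278). Scaled to library size, Hist1h4j and Hist1h2ao did not reach the filter's minimum count in every Ctrl library. Both entered the test only through F-cKO, where they were high, so their calls lean on that filter. Groups did not overlap for any of the called genes. In all, 6 of the 17 members had every F-cKO library above every Ctrl library and 2 had every one below, against 20.9% and 20.7% of all genes. The lower value nearest the threshold was that of Hist1h2bc, at −0.37 ± 0.15 (edgeR adjusted P = 0.104). The count of members called higher was 1 without F-cKO 2 or without Ctrl 3, 2 without Ctrl 1 and 3 without F-cKO 3, and Hist1h3c was called without each library in turn. With 1 library left out, Hist1h4j kept its call only without Ctrl 2 and Hist1h2ao only without F-cKO 1. Hist1h4i lost its call without Ctrl 1, Ctrl 3 or F-cKO 2 (edgeR adjusted P = 0.0538, 0.0587 and 0.0530), and Hist2h2be without Ctrl 3, F-cKO 2 or F-cKO 3. DESeq2 called the same genes except Hist1h4j (DESeq2 adjusted P = 0.0934). The share of all genes called fell too, from 21.1% to 11.3% without F-cKO 2 and 8.92% without Ctrl 3.

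In M-cKO RNA-seq, 4 of 17 tested members were called higher and 1 lower, against 15.5% and 14.1% of all 16968 genes (29.6% in either direction), and the members' median log2 fold change was 0.10. Hist3h2ba rose from 101.8, 124.4 and 103.5 CPM in Ctrl to 169.0, 168.1 and 175.4 CPM in M-cKO, a log2 fold change of 0.64 ± 0.08 (edgeR adjusted P = 0.000163). In F-cKO it had 116.4, 123.5 and 122.3 CPM, within the range of Ctrl. Hist3h2a, 5312 bases away with the pseudogene Hist3h2bb-ps between them, moved in the opposite direction, from 42.2, 43.1 and 35.8 CPM in Ctrl to 29.5, 24.7 and 25.5 CPM in M-cKO (−0.60 ± 0.10, edgeR adjusted P = 0.00109). Thus RNA-seq values of both genes of the Hist3 cluster with most reads changed, Hist3h2ba upwards and Hist3h2a downwards, with no overlap between groups. For both, reads of overlapping genes could not be separated, as given above. Footprints of Hist3h2ba overlapped, at 75.2, 57.4 and 41.5 CPM in Ctrl and 66.45, 59.2 and 59.8 in M-cKO. Their change was 0.07 ± 0.19 (edgeR adjusted P = 0.831). In M-cKO RNA-seq, 5 members were higher and 2 lower at an unadjusted P below 0.05, against 20.6% and 19.9% of all genes.

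Hist1h4i reached 12.2, 12.8 and 13.8 CPM in M-cKO against 7.22, 7.98 and 7.24 in Ctrl (0.79 ± 0.12, edgeR adjusted P = 0.00076). Hist1h3c had 40, 23 and 40 reads in M-cKO against 12, 10 and 9 in Ctrl (1.64 ± 0.31, edgeR adjusted P = 0.00258), and Hist1h2ao had 27, 13 and 39 against 11, 10 and 4 (1.57 ± 0.44, edgeR adjusted P = 0.0203). Both knockouts were set against the same Ctrl libraries. The M-cKO call of Hist1h2ao was lost without Ctrl 3 (edgeR adjusted P = 0.0736) and without M-cKO 3 (edgeR adjusted P = 0.0864). Here too Hist1h2ao passed the filter on low counts only through the knockout, where it was high. Hist1h1c, the H1 gene with most RNA-seq reads, had 9.38, 11.1 and 13.3 CPM in Ctrl, 10.6, 12.8 and 9.53 in F-cKO, and 9.74, 6.73 and 9.38 in M-cKO, and no difference passed the test. Library M-cKO 3 had the highest CPM of the 9 RNA-seq libraries for 21 of 63 members with any read. It held 17, 24, 48 and 29 reads of Hist1h1a, Hist1h1b, Hist1h1d and Hist1h1e, against 0 to 7, 0 to 8, 2 to 15 and 2 to 11 in the other 8 libraries.

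**Figure D2:**
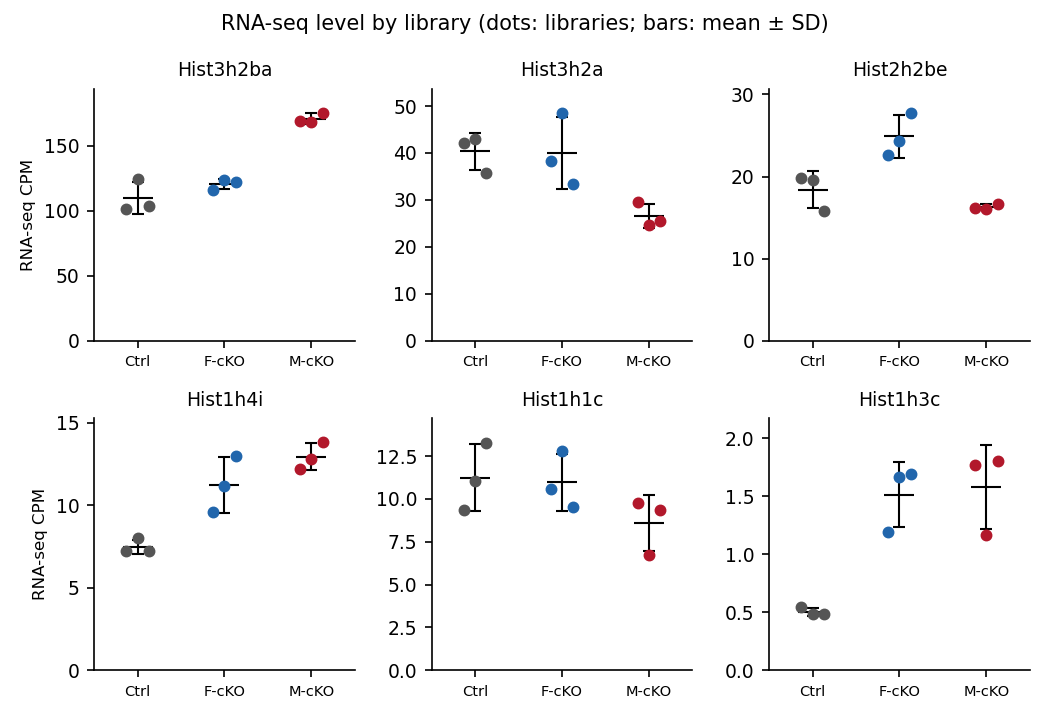
RNA-seq CPM (vertical) of 6 members in Ctrl, F-cKO and M-cKO, with a dot for each library and bars for the mean ± SD of 3 libraries. Hist3h2ba is at 168.1 to 175.4 CPM in M-cKO, above all other libraries, and Hist3h2a is at 24.7 to 29.5 CPM in M-cKO, below all others.

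When M-cKO was compared with F-cKO directly, 21 members were tested. Of these 1 was called higher in M-cKO and 2 lower, against 13.1% and 14.3% of all 16802 genes. Hist3h2ba was higher (0.48 ± 0.06, edgeR adjusted P = 0.000463), Hist3h2a was lower (−0.61 ± 0.13, edgeR adjusted P = 0.0071) and Hist2h2be was lower (−0.63 ± 0.10, edgeR adjusted P = 0.00171). For Hist2h2be the values were 22.7, 24.3 and 27.8 CPM in F-cKO and 16.2, 16.1 and 16.7 CPM in M-cKO, with 15.8 to 19.8 in Ctrl, so F-cKO was the group set apart. All 3 were called in M-cKO against F-cKO with each single library left out.

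Footprints were compared for the 55 members with counts in every Ribo-seq library. The other 15, among them Hist3h2a, Hist1h2ao and 5 Hist2 genes with no RNA-seq read, were blank in 8 libraries and had at most 15 reads in the remaining library. In F-cKO, 0 of 55 members were called in either direction by edgeR, as were 0% of all 14335 genes, and DESeq2 called 0 members too. Fto, the targeted gene, was not called by edgeR here either (−2.675 ± 0.25, edgeR adjusted P = 0.35). These 0 calls thus do not show that footprints were unchanged. At an unadjusted P below 0.05, 0 members were higher and 3 lower, against 1.58% and 0.635% of all genes. These 3 were Hist1h2ap, Hist1h3e and Hist1h2ai. Hist1h2ap had 79.5, 78.9 and 69.1 CPM in Ctrl and 36.4, 40.7 and 52.2 CPM in F-cKO (−0.80 ± 0.16, edgeR adjusted P = 0.73), without overlap. Every F-cKO library lay above every Ctrl library for 0 members and below for 4, against 3.66% and 4.2% of all genes. The higher value nearest the threshold was that of Hist1h1d (0.61 ± 0.29, edgeR adjusted P = 0.73).

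F-cKO 2, the library with high endothelium markers, had the lowest CPM of the 9 libraries for 19 of 55 members and for 9 of 13 H4 genes. It gave Hist3h2ba 5.01 CPM against 41.5 to 75.8 in the other 8 libraries and Hist1h4k 10.6 CPM against 90.9 to 151.3. The part of this library's composition in these values was not tested. Without it, 0 members were called in F-cKO by edgeR, and 1 of all 14336 genes.

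In M-cKO Ribo-seq, 8 of 55 members were called higher and 1 lower, against 7.13% and 7.5% of all 14314 genes. A positive log2 fold change was found for 41 members, with a median of 0.30 against a median of −0.000284 over all genes tested. At an unadjusted P below 0.05, 17 members were higher and 4 lower, against 16.6% and 17.5% of all genes. On TMM-scaled CPM 12 had every M-cKO library above Ctrl and 4 below, against 18.4% and 21% of all genes. On the CPM printed here some other members, such as Hist1h1b, did not overlap either. The called genes were Hist1h1c and Hist1h1d (H1), Hist1h2ak (H2A), Hist1h2bh and Hist1h2be (H2B), Hist1h3c and Hist1h3g (H3) and Hist1h4b (H4), with Hist1h2ap (H2A) lower. In a single fit of all 3 genotypes none of them was called, 1 was called without Ctrl 2 (Hist1h1c), and 16 members were called higher without M-cKO 3. Calls over all genes moved in the same way, from 14.6% to 0.244% in the single fit, 1.24% without Ctrl 2 and 17.8% without M-cKO 3. Hist1h1c was called without each library in turn, and Hist1h1d and Hist1h2ak without each but Ctrl 2. The other 6 calls were lost without Ctrl 1 and without Ctrl 2. Cell type markers moved in the same footprint libraries. Interneuron and ganglionic eminence markers summed to 259.9 to 442.5 CPM in M-cKO against 151.4 to 224.6 in Ctrl (3 of 6 called higher, 0 lower) and intermediate progenitor markers to 342.1 to 430 against 236.7 to 334.9 (0 of 5 called). Radial glia markers summed to 2234 to 2761 CPM against 3081 to 3627 (1 of 8 called higher, 1 lower). Their part in the members' footprint values was not tested.

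All 6 linker histone genes had a positive log2 fold change in M-cKO footprints, with a median of 0.90, and 2 were called. All 6 were positive in F-cKO footprints too, with a median of 0.46 and 0 called. Both knockouts were set against the same Ctrl libraries, and Ctrl 3 had the lowest CPM of the 9 libraries for all 6. Hist1h1c had 79.2, 69.3 and 57.5 CPM in Ctrl and 171.5, 150.8 and 139.2 CPM in M-cKO, a log2 fold change of 1.14 ± 0.15 (edgeR adjusted P = 0.00791). Hist1h1d rose from 453.9, 402.7 and 370.1 CPM to 898.3, 952.9 and 745.4 CPM (1.06 ± 0.14, edgeR adjusted P = 0.00827). For both genes every M-cKO library lay above every Ctrl library. Hist1h1b had 348.8, 293.6 and 273.4 CPM in Ctrl and 549.7, 640.6 and 353.1 CPM in M-cKO (0.73 ± 0.23, edgeR adjusted P = 0.0679). Hist1h1a (0.26 ± 0.20, edgeR adjusted P = 0.381) and Hist1h1e (0.20 ± 0.17, edgeR adjusted P = 0.461) had overlapping groups. The 5 genes share the CCAAT box shown above, as do all H2A and H2B windows, and Hist1h1c alone among the 5 has no TATAAA there. A relation of these letters to footprints was not tested. Library F-cKO 1 gave the highest value of its group for all 5, such as 896.9 CPM for Hist1h1d against 488.8 and 452.1, and none of the 5 was called.

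**Figure D3:**
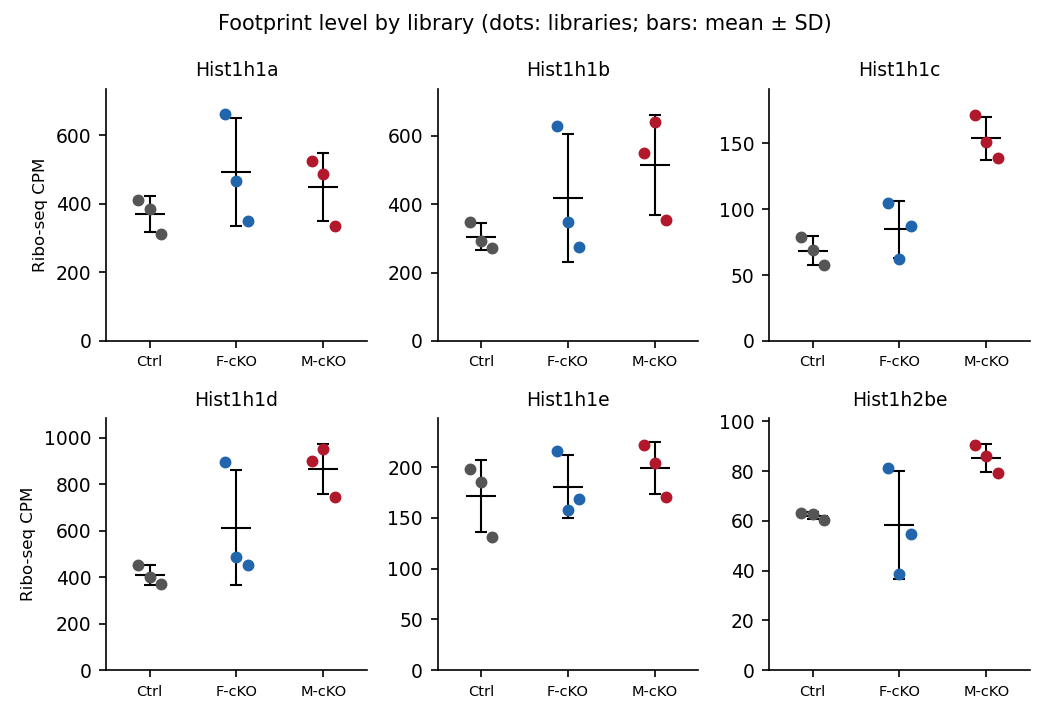
Ribo-seq CPM (vertical) of 5 linker histone genes and Hist1h2be in Ctrl, F-cKO and M-cKO, with a dot for each library and bars for the mean ± SD of 3 libraries. Hist1h1c is at 139.2 to 171.5 CPM in M-cKO against 57.5 to 79.2 in Ctrl, whereas groups overlap for Hist1h1a and Hist1h1e.

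Among core histones, Hist1h2ak had 15.5, 13.4 and 15.1 CPM in Ctrl and 28.4, 25.6 and 26.7 in M-cKO (0.85 ± 0.13, edgeR adjusted P = 0.0112). Hist1h2bh had 8.95, 9.08 and 9.66 CPM in Ctrl and 22.5, 17.7 and 15.1 in M-cKO (0.97 ± 0.19, edgeR adjusted P = 0.0212). Groups did not overlap for either gene. Hist1h2ap moved the other way, to 54.6, 37.1 and 45.3 CPM in M-cKO (−0.76 ± 0.16, edgeR adjusted P = 0.0234), and it was also below Ctrl in every F-cKO library as given above. The remaining called genes, Hist1h4b (1.65), Hist1h2be (0.43), Hist1h3c (0.93) and Hist1h3g (1.42), had edgeR adjusted P values of 0.0254 to 0.0435.

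H3 and H4 genes mostly had positive values in M-cKO footprints, 7 of 9 and 11 of 13, with medians of 0.54 and 0.64. Hist1h4b had 3.29, 4.22 and 6.05 CPM in Ctrl and 12.3, 21.2 and 10.2 in M-cKO. Hist1h3g had 8.92, 9.47 and 9.63 CPM in Ctrl and 20.8, 41.8 and 13.99 in M-cKO. Both were above Ctrl in every M-cKO library, with the highest value in M-cKO 2. Hist1h4f (1.29 ± 0.36, edgeR adjusted P = 0.0529) and Hist1h4j (0.64 ± 0.18, edgeR adjusted P = 0.0518) were above Ctrl in every M-cKO library too and did not pass the test. Hist4h4, the only gene of its cluster, had 223.2, 204.4 and 177.6 CPM in Ctrl and 272.1, 255.2 and 221.4 in M-cKO.

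H2A and H2B genes were divided. Of 13 H2A genes 7 had positive and 6 negative values, with a median of 0.05, and of 14 H2B genes 10 were positive, with a median of 0.24. Hist1h2ad, the H2A gene with most footprint reads per length in Ctrl, had 108.0, 101.1 and 94.6 CPM in Ctrl and 89.95, 35.3 and 23.98 in M-cKO. All its M-cKO values lay below Ctrl and were far apart from each other. Hist1h2ae had 79.8, 97.5 and 98.2 CPM in Ctrl and 82.5, 43.8 and 62.4 in M-cKO, which overlapped (−0.57 ± 0.23, edgeR adjusted P = 0.124). Hist2h2be, of the Hist2 cluster, had 12.4, 11.6 and 8.68 CPM in Ctrl and 7.17, 7.77 and 6.08 in M-cKO, without overlap (−0.67 ± 0.19, edgeR adjusted P = 0.0544).

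**Figure D4:**
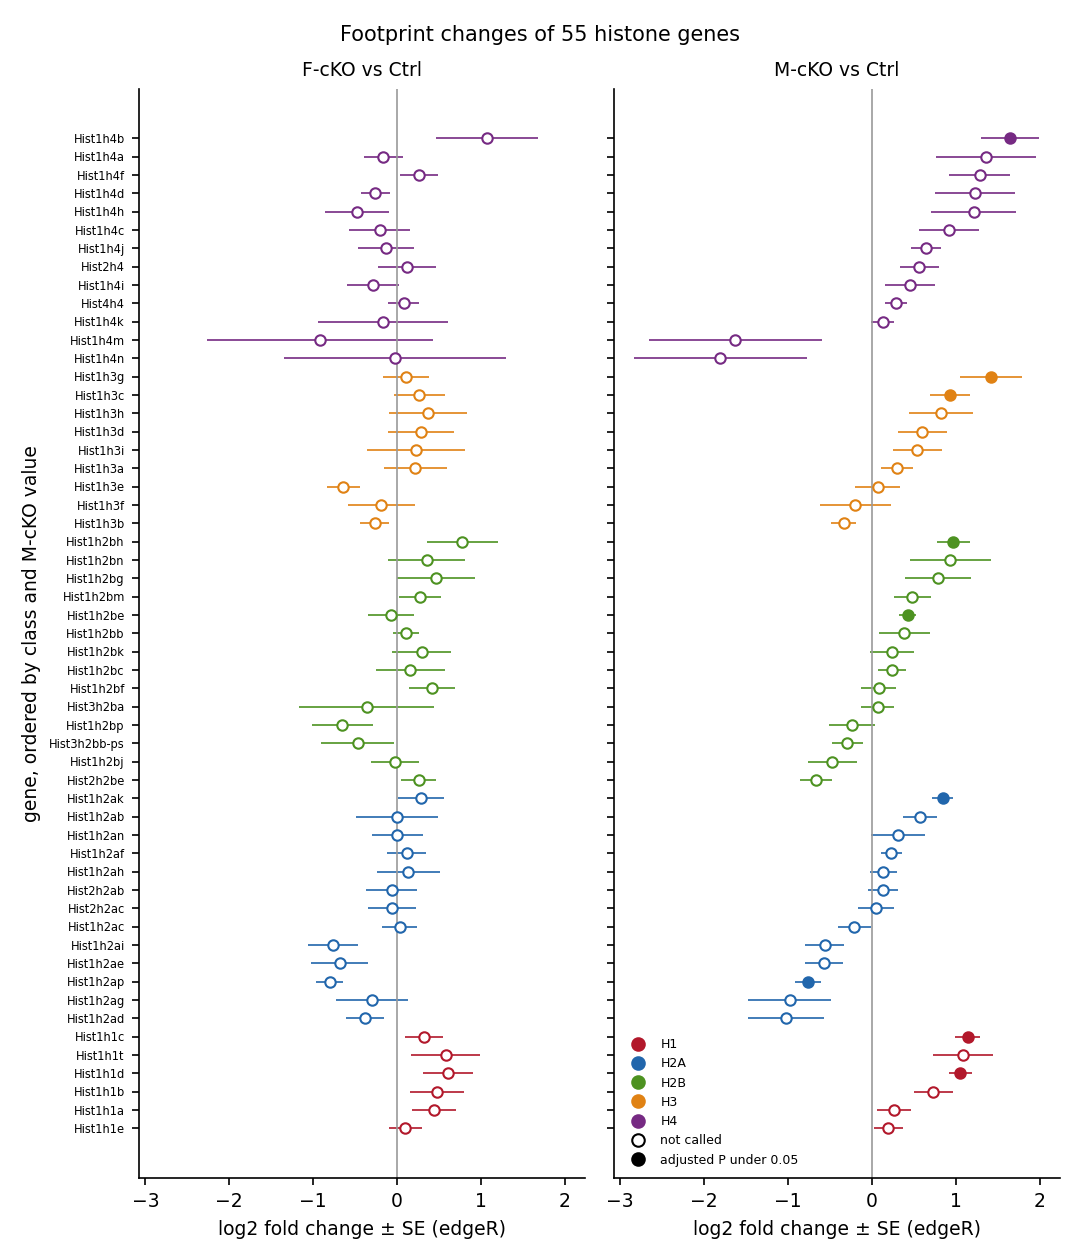
Ribo-seq log2 fold change ± SE (horizontal, edgeR) of 55 members in F-cKO and in M-cKO against Ctrl, ordered by class and by the M-cKO value, with filled symbols at an adjusted P under 0.05. Filled symbols are found in M-cKO for 9 genes and in F-cKO for 0.

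Summed over a class, which leaves out how reads were divided among copies, footprints in M-cKO were 1.65 times those of Ctrl for H1, 1.73 for H4, 1.3 for H3, 1.16 for H2B and 0.827 for H2A. H1 genes summed to 1493, 1336 and 1143 CPM in Ctrl and 2366, 2439 and 1746 in M-cKO, without overlap. H4 genes summed to 1164, 1164 and 983.4 CPM in Ctrl and 1583, 2966 and 1180 in M-cKO. The H4 value rested on M-cKO 2, which had the highest CPM of all 9 libraries for 9 of 13 H4 genes, such as 913.7 CPM of Hist1h4d against 323.2 and 222.9 in the other M-cKO libraries. Without it the log2 ratio of H4 was 0.32 in place of 0.79. H2A genes summed to 579.8, 609.8 and 583.1 CPM in Ctrl, 443.2, 522.0 and 490.6 in F-cKO, and 573.1, 409.5 and 483.2 in M-cKO, so every library of both knockouts lay below every Ctrl library. With TMM scaling M-cKO 1 was at 598.1 CPM, within the Ctrl range of 572.1 to 604.5. In F-cKO the ratio to Ctrl was 1.35 for H1, 0.821 for H2A, 1.03 for H2B, 0.97 for H3 and 0.918 for H4. The H1 value rested on F-cKO 1, without which its log2 ratio was 0.11. In RNA-seq the H4 sum of Ctrl was 10.5 to 11.6 CPM, that of F-cKO 14.2 to 17.8 and that of M-cKO 15.6 to 17.9. The H3 sum of Ctrl was 2.27 to 3.00 CPM, that of F-cKO 4.67 to 5.05 and that of M-cKO 2.88 to 5.95. Both knockouts thus lay above Ctrl for H4, and F-cKO alone lay wholly above Ctrl for H3. Most of the H4 sum was Hist1h4i, and without it M-cKO had 3.41, 3.13 and 4.10 CPM against 4.06, 2.51 and 4.38 in Ctrl, which overlapped, and F-cKO had 4.67, 4.71 and 4.84. The H2B sum, most of it Hist3h2ba, was 131.3 to 157.5 CPM in Ctrl and 193.1 to 205.0 in M-cKO. The sums carry no test.

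**Figure D5:**
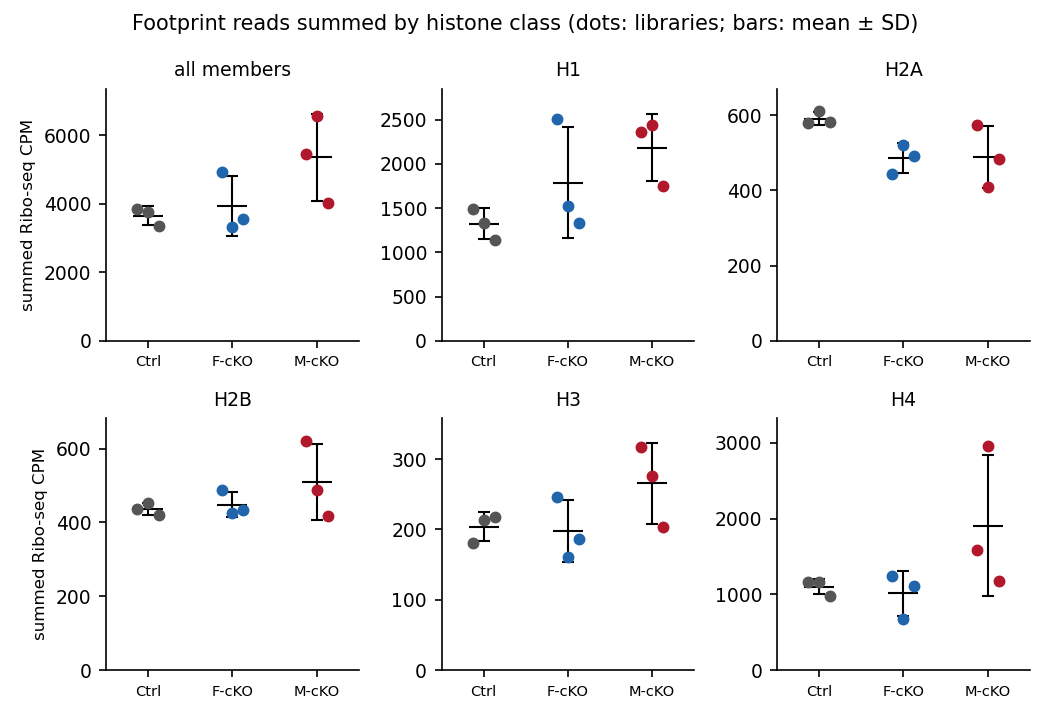
Ribo-seq CPM summed over all members and over each histone class (vertical) in Ctrl, F-cKO and M-cKO, with a dot for each library and bars for the mean ± SD of 3 libraries. H1 sums are 1746 to 2439 CPM in M-cKO against 1143 to 1493 in Ctrl, and 1 M-cKO library stands at 2966 CPM for H4.

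The H4 genes Hist1h4m and Hist1h4n were uneven within groups. Hist1h4m had 36.1, 119.7 and 30.9 CPM in Ctrl, 0.194, 42.6 and 55.3 in F-cKO, and 39.9, 18.6 and 0.829 in M-cKO. Hist1h4n had 9.46, 20.4 and 13.4 CPM in Ctrl, 0.0485, 31.3 and 11.05 in F-cKO, and 8.36, 3.92 and 0 in M-cKO. Both genes were near 0 in F-cKO 1 and M-cKO 3 only, and as members of the group of 13 H4 copies their counts depend on how shared reads were assigned.

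M-cKO compared with F-cKO gave 0 members called in Ribo-seq by edgeR, as for 0% of all 14262 genes, and 1 called lower by DESeq2 (Hist2h2be). At an unadjusted P below 0.05, 5 members were higher and 1 lower, against 4.98% and 3.11% of all genes, and 8 had every M-cKO library above F-cKO and 1 below, against 9.17% and 6.91%. Hist1h1c had 104.5, 62.0 and 87.5 CPM in F-cKO, all below M-cKO (0.84 ± 0.23, edgeR adjusted P = 0.555). Hist2h2be had 11.6, 13.03 and 14.1 CPM in F-cKO and 7.17, 7.77 and 6.08 in M-cKO (−0.90 ± 0.25, edgeR adjusted P = 0.555), in the direction of its RNA-seq difference.

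TE was then tested as the interaction of assay and genotype over 12 libraries, which was possible for 14 members in each comparison with Ctrl and for 18 between the knockouts. In M-cKO, 2 members were called higher and 0 lower, against 1.89% and 1.18% of all 13208 genes (3.07% in either direction). Hist1h1c had a TE log2 fold change of 1.58 ± 0.24 (edgeR adjusted P = 0.00905), from the footprints and RNA given above. Hist1h2be had 63.1, 62.6 and 60.5 footprint CPM in Ctrl and 90.6, 85.9 and 79.1 in M-cKO, with 25, 14 and 17 RNA-seq reads in Ctrl and 15, 11 and 11 in M-cKO, which gave 1.16 ± 0.27 (edgeR adjusted P = 0.0366). Its RefSeq entry spans 37455 bases and overlaps Gm33387, so which transcript the reads came from is uncertain. The lower value nearest the threshold was that of Hist3h2ba (−0.50 ± 0.22, edgeR adjusted P = 0.201). Neither call was kept in a single fit of all 3 genotypes or without Ctrl 2, and Hist1h1c was called without each of the other 5 libraries. Hist1h2be was kept without M-cKO 3 and lost without each of the other 5, at edgeR adjusted P values of 0.0725 to 0.164. The share of all genes called for TE fell too, from 3.07% to 0.0829% in the single fit and 0.0604% without Ctrl 2.

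In F-cKO TE, edgeR called 0 of 14 members, as 0% of all 13225 genes, and DESeq2 called 0. Fto was not called by edgeR there either (−1.505 ± 0.52, edgeR adjusted P = 0.472). At an unadjusted P below 0.05, 0 members were higher and 3 lower, against 3.11% and 6.18% of all genes. These 3 were Hist1h3c (−1.37 ± 0.38, edgeR adjusted P = 0.433), Hist1h4i (−0.93 ± 0.30, edgeR adjusted P = 0.453) and Hist1h4j (−1.41 ± 0.47, edgeR adjusted P = 0.472), all of which had more RNA-seq reads in F-cKO. The smallest P in the other direction was that of Hist1h1c (0.30 ± 0.29, edgeR adjusted P = 0.657). Between the knockouts edgeR called 0 of 18 members, as 0% of all 13162 genes, and DESeq2 called 0, with 3 higher and 0 lower at an unadjusted P below 0.05 against 2.44% and 1.67%. These were Hist1h1c (1.26 ± 0.31), Hist1h4j (1.71 ± 0.51) and Hist1h2be (1.201 ± 0.40), each at an edgeR adjusted P of 0.889. The smallest P among negative values was that of Hist1h1e (−0.93 ± 0.52, edgeR adjusted P = 0.889).

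Genes that act with these histones were examined as lists. Of 22 S-phase genes, 19 were called higher in F-cKO RNA-seq and 15 in M-cKO, with 0 lower in either and medians of 0.56 and 0.44, against 11.5% and 15.5% of all genes called higher. Mki67, a proliferation marker, rose by 0.95 ± 0.12 in F-cKO (edgeR adjusted P = 0.00293) and 0.81 ± 0.10 in M-cKO (edgeR adjusted P = 0.000163), and Mcm2, a subunit of the replicative helicase, by 0.78 ± 0.10 and 0.68 ± 0.10 (edgeR adjusted P = 0.00293 and 0.000726). In Ribo-seq 5 of the 22 were called in M-cKO, each of them higher, against 7.13% of all genes. In F-cKO Ribo-seq 0 were called, as 0% of all genes. Intermediate progenitor markers moved with them in RNA-seq, with 4 of 5 called higher in F-cKO and 3 of 5 in M-cKO. Their summed level was 436.7 to 689.1 CPM in Ctrl, against 755.2 to 943.8 for F-cKO and 749.6 to 809.1 for M-cKO. Radial glia markers went both ways, with 4 of 8 called higher and 2 lower in F-cKO RNA-seq (median 0.43), and 3 higher and 2 lower in M-cKO (median 0.12). All genes were called lower at 9.57% and 14.1% in these comparisons. The summed level of radial glia markers was 1908 to 2018 CPM in F-cKO, 1471 to 1658 in M-cKO and 1752 to 1928 in Ctrl. The part of cell composition in the members' values was not tested.

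Of 11 replication-independent histone genes, 6 were called higher in F-cKO RNA-seq, 7 in M-cKO RNA-seq and 3 in M-cKO Ribo-seq, with 0 lower. In F-cKO Ribo-seq 0 were called, as 0% of all 14335 genes. The shares of all genes called higher in the other 3 comparisons were 11.5%, 15.5% and 7.13%. H1f0, the linker histone of differentiated cells, rose in RNA-seq by 0.57 ± 0.09 in F-cKO (edgeR adjusted P = 0.00505) and 0.56 ± 0.09 in M-cKO (edgeR adjusted P = 0.000853), and in M-cKO footprints by 0.63 ± 0.14 (edgeR adjusted P = 0.0266). H2afx, the H2A variant phosphorylated at DNA breaks, rose in M-cKO footprints by 0.78 ± 0.21 (edgeR adjusted P = 0.0482).

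Of 17 genes for histone mRNA processing and decay, 5 were called higher in F-cKO RNA-seq and 4 in M-cKO RNA-seq, with 0 lower, and 3 higher and 4 lower in M-cKO Ribo-seq. All genes were called higher at 11.5%, 15.5% and 7.13% in these comparisons and lower at 9.57%, 14.1% and 7.5%, and the list's medians were 0.17, 0.03 and 0.00345. Slbp itself had 43.0, 40.0 and 36.4 CPM in Ctrl RNA-seq, 46.3, 43.4 and 45.8 in F-cKO and 37.8, 42.4 and 39.9 in M-cKO, and was not called. Lsm11 and Lsm10, the Sm-like proteins of the U7 particle that directs cleavage of histone pre-mRNA, rose in M-cKO RNA-seq by 0.64 ± 0.07 (edgeR adjusted P = 0.000126) and 0.75 ± 0.10 (edgeR adjusted P = 0.000247). Mblac1, a nuclease of histone pre-mRNA, rose by 1.05 ± 0.11 in RNA-seq (edgeR adjusted P = 8.23e-05) and 1.02 ± 0.17 in footprints (edgeR adjusted P = 0.0145).

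Of 13 histone chaperones, 9 were called higher and 0 lower in F-cKO RNA-seq, and 7 higher and 2 lower in M-cKO RNA-seq, against 11.5% and 15.5% of all genes called higher and 9.57% and 14.1% called lower. Chaf1a, the large subunit of the chromatin assembly factor that deposits H3 and H4 behind the replication fork, rose by 0.66 ± 0.14 in F-cKO (edgeR adjusted P = 0.0102) and 0.72 ± 0.13 in M-cKO (edgeR adjusted P = 0.00167). Nasp, which holds soluble H3 and H4, rose by 0.26 ± 0.05 in F-cKO (edgeR adjusted P = 0.0112) and fell in M-cKO (−0.34 ± 0.05, edgeR adjusted P = 0.000979). In M-cKO Ribo-seq 2 chaperones were lower, Asf1a (−0.64 ± 0.14, edgeR adjusted P = 0.0296) and Rbbp4 (−0.53 ± 0.12, edgeR adjusted P = 0.0313), and 0 were higher, against 7.5% of all genes called lower and 7.13% called higher. In F-cKO Ribo-seq 0 of the 13 were called, as 0% of all 14335 genes.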

How the data were processed

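RNA-seq and Ribo-seq of E15.5 cortex were used, with 3 libraries per genotype and assay, grouped by the sample labels. Read counts per gene were deposited by the authors for both assays, from HISAT2 2.0.5 alignments (RNA-seq, counting tool not given in the sources used here) and from TopHat2 and HTSeq (Ribo-seq), with build mm10 per the submitters' processing notes. FPKM (RNA-seq) and RPKM (Ribo-seq) were deposited by the authors too. Genes blank in 8 Ribo-seq libraries (40490) were left out of count tests.

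Counts were tested in R 4.3.3 with edgeR 4.0.16 (filterByExpr with a minimum count of 10 and total of 15, TMM, quasi-likelihood F test, Benjamini-Hochberg over all genes, adjusted P below 0.05), with 6 libraries per comparison and 12 for TE. CPM are counts scaled to the library's counted reads. Counts of genes with every library above or below the other group used TMM-scaled CPM, so they can differ from the printed CPM. DESeq2 1.42.0 and limma 3.58.1 served as alternatives. The labels call libraries biological repeats. Correlations of same-numbered deviations were −0.278 to 0.163. With 3 libraries per group they cannot tell whether replicate numbers pair the libraries. Pairing between assays was not examined.

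Members and lists were chosen with earlier results of these data known. Named were, per class, the 2 members highest in FPKM and in RPKM, and per comparison up to 4 called members in each direction or else that with the smallest P, plus up to 4 genes per other list. Other genes were named after their values were seen. Positions and promoters come from RefSeq (GRCm38.p6), which matched 70 and 62 members.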

Additional observations from a re-analysis of the deposited data

Results flagged for a closer look

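In RNA-seq the effects of both knockouts differed for 3 members when M-cKO was set against F-cKO. The difference was 0.48 on the log2 scale for Hist3h2ba, −0.61 for Hist3h2a and −0.63 for Hist2h2be (edgeR adjusted P = 0.000463, 0.0071 and 0.00171), and the M-cKO and F-cKO libraries overlapped for none of the 3.

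In M-cKO the change in footprints differed from that in RNA for 2 members, by the interaction of assay and genotype. The difference was 1.58 for Hist1h1c and 1.16 for Hist1h2be (edgeR adjusted P = 0.00905 and 0.0366). The call of Hist1h2be was kept without M-cKO 3 and lost without each of the other 5 libraries, and that of Hist1h1c was lost without Ctrl 2.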

How the results depend on the processing

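Counts of members called in RNA-seq between M-cKO and F-cKO stayed at 1 higher and 2 lower under each alternative that changed 1 library, the tool (DESeq2), the scaling (RLE), the filter or the block. The single fit added Hist2h3c2 and limma Hist1h4k. In F-cKO RNA-seq, leaving out 1 library gave 1 to 5 members higher, with 8.92% to 20% of all genes called. In M-cKO RNA-seq it gave 3 to 5 higher and 1 to 2 lower, with 20.5% to 26.9% of all genes called. Testing M-cKO RNA-seq with no filter gave 7 higher (18.1% of all genes called in either direction, against 29.6% with the filter). In M-cKO Ribo-seq leaving out 1 library gave 1 to 16 higher and 0 to 4 lower, DESeq2 gave 13 and 3, the single fit of all 3 genotypes 0 and 0, and limma on log2(RPKM + 0.5) 3 and 0. The share of all genes called, 14.6% by edgeR, was 1.24% to 17.8% with 1 library left out, 21.7% by DESeq2, 0.244% in the single fit and 3.29% by limma. For M-cKO against F-cKO in Ribo-seq DESeq2 gave 1 lower (1.4% of all genes called). For TE in M-cKO leaving out 1 library in both assays gave 0 to 2 higher and 0 to 1 lower, and the single fit gave 0 higher. The share of all genes called was 0.0604% to 4.99% with 1 left out and 0.0829% in the single fit. The cause of these shifts was not tested. With the replicate number as a block, 2 members were higher in F-cKO RNA-seq and 1 in M-cKO TE, while the share of all genes called fell from 21.1% to 12.6% and from 3.07% to 1.3%. In M-cKO Ribo-seq the block took it from 14.6% to 9.21%, and 7 members were called, with Hist1h2be, Hist1h3c and Hist1h3g lost and Hist1h4j added. Low correlations of same-numbered deviations cannot tell whether the numbers pair the libraries, as there are 3 libraries per group. The median ratio of footprints to RNA over members was 95.7 in Ctrl, 97.2 in F-cKO and 130.6 for M-cKO with a pseudocount of 0.1. For Ctrl, F-cKO and M-cKO in turn, a pseudocount of 1 gave 31.8, 35.3 and 43.4, an FPKM and RPKM of at least 1 gave 5.63, 23.6 and 23.7, and leaving out 1 replicate number gave 113.5 to 198.2, 87.4 to 98.6 and 123.9 to 310.8. No member chosen by the naming rule changed direction in the comparison it was chosen for under the alternatives run. Other named members were not run singly.

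Limits: RNA-seq depth left 53 of 70 members untested in each comparison with Ctrl. Copies with shared reads, gene models longer than the RefSeq gene and unstated strand limit values of single genes. With 3 against 3 libraries an exact permutation test cannot go below 0.1.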
